A study of Mus musculus with 2 samples.

Results

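The genes described here encode the protein folding machinery of the endoplasmic reticulum (ER), the compartment in which secreted and membrane proteins are folded, and the unfolded protein response (UPR) that adjusts it. The list held 38 genes, grouped by function. A gene was a member if a probe set carried its symbol and no other. By this rule 37 of the 38 were measured, among 22180 genes in all. Ero1l and Ero1lb were matched through their current symbols, Ero1a and Ero1b. Pdia4 had no probe set of its own.

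E4BP4 (gene symbol Nfil3) is a basic leucine zipper repressor of transcription that competes with the PAR bZIP activators for a shared DNA element. Liver RNA of wild-type (WT) mice and of mice labelled E4bp4-LKO, described as E4bp4-deficient, was hybridised to 1 array each. All mice were males, 2 months old when the high-fat diet began, and ate it for 12 weeks, so both groups share the diet and no chow-fed group enters any value below. Each array received pooled RNA from several mice. The number of mice per pool, the hour of collection, and the promoter or Cre line behind the deletion are not stated in the sources used. With 1 pooled array per genotype there is no replicate error, no standard error and no test of genotype, and each difference describes these 2 arrays.

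Hepatocytes export large amounts of plasma protein and so keep an extensive rough ER. When unfolded protein accumulates, the BiP chaperone leaves the lumenal domains of the sensors IRE1, PERK and ATF6. Active IRE1 splices the Xbp1 transcript, PERK phosphorylates the initiation factor eIF2α and slows translation, and ATF6 travels to the Golgi, where proteases free its transcription factor part. The factors XBP1 and ATF6 then raise genes for chaperones, disulfide enzymes and ER-associated degradation (ERAD), the route by which misfolded proteins are returned to the cytosol and destroyed. An array of whole transcripts measures the abundance of these RNAs. It does not show the splicing of Xbp1, the phosphorylation of PERK or the cleavage of ATF6, which are the steps that switch the response on.

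A DNA element through which ATF6 or XBP1 acts is the ER stress response element (ERSE), bound together with the general factor NF-Y. It was searched as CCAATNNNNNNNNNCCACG, on both strands, in the RefSeq promoter windows of build GRCm38.p6, which run from 250 bases before to 50 bases after a gene's start. A window was found for 32 of the 38 members, but not for Atf6, Hyou1, Manf, Sil1, Derl1 and Sec61a1. The element was present in 10 of the 32 members (31.3%). It was present in 37 of all 27025 genes with a window (0.137%), and in 17 of the 8798 such genes measured above background (0.193%). Members thus made up 27.0% of the genes in the genome-wide table that carry it. The members were chosen as genes of a response that acts through this element, so these shares are not independent of that choice. The choice did not read promoter sequence. The 11 matches in the 10 members are shown because they are the sequence that these 10 genes share. Each is printed 5′ to 3′ on the strand where the element reads forward, with 15 bases on either side, and capitals mark its fixed bases.
Hspa5, chr2:34772010-34772058, plus strand: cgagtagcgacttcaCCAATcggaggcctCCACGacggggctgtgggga
Hsp90b1 nearer site, chr10:86705518-86705566, plus strand: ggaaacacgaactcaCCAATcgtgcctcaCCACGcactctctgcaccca
Hsp90b1 farther site, chr10:86705623-86705671, minus strand: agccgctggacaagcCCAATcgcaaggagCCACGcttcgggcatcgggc
Calr, chr8:84847060-84847108, plus strand: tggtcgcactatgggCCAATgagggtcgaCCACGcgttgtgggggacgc
Canx, chr11:50325785-50325833, minus strand: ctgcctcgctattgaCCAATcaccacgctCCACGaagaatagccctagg
Dnajc3, chr14:118937812-118937860, plus strand: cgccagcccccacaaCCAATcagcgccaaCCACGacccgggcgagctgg
Creld2, chr15:88819505-88819553, minus strand: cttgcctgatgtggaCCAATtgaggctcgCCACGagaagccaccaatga
Pdia6, chr12:17266476-17266524, plus strand: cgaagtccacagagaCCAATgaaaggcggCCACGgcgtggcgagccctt
Ero1lb, chr13:12565667-12565715, minus strand: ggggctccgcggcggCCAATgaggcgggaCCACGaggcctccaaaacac
Derl3, chr10:75893227-75893275, minus strand: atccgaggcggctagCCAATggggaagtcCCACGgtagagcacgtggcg
Syvn1, chr19:6046517-6046565, plus strand: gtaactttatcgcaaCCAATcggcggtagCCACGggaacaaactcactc

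All 11 lay upstream of the start. The nearest began 44 bases before it, in Syvn1, and the farthest 212 bases before it, in Hsp90b1, the only member with 2 exact matches. Variants of the element that differ in a fixed base were not searched. The element read along the gene's own strand in 6 cases and against it in 5. The site of Creld2 lies between Creld2 and the divergently placed gene Alg12, whose window holds the same element. Member windows were also richer in G and C than windows at large, with a median of 63.3% against 52.7%.

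Related elements were found in fewer members. The short form of the element, ERSE-II, searched as ATTGGNCCACG, was found in Herpud1 and Dnajb11, 2 of the 32 members, against 12 of 27025 genes. The XBP1 and ATF6 element UPRE, searched as TGACGTGG or TGACGTGA, was found in Hspa5 alone, 1 of the 32 members (3.1%). It was found in 329 of 27025 genes (1.22%) and in 160 of the 8798 measured above background (1.82%). Hspa5 encodes BiP and is the textbook ATF6 target. Its promoter is shown as 1 run over the 250 bases before the start, chr2:34771840-34772089 on the plus strand. Capitals mark the UPRE and then the fixed bases of the exact ERSE match.
Hspa5 promoter: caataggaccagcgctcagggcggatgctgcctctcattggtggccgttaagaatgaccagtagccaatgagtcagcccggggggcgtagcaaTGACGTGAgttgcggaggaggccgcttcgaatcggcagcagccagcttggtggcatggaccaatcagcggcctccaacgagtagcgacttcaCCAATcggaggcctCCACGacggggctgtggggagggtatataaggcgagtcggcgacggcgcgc

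The element that E4BP4 itself recognises was searched as TTACGTAA or TTATGTAA. It was found in Os9 and Sec61b, 2 of the 32 members (6.25%), against 333 of 27025 genes (1.23%) and 74 of the 8798 measured above background (0.841%). Of the pair, only Os9 lay above background. Both sites are shown because E4BP4 is the factor that differs between the genotypes, with the element in capitals.
Os9, chr10:127121211-127121248, minus strand: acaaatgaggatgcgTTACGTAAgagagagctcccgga
Sec61b, chr4:47474509-47474546, minus strand: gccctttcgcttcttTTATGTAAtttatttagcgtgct
Os9 encodes a lectin that hands misfolded glycoproteins to the ERAD ligase, and Sec61b a small subunit of the translocation channel. A match is a string of letters in a window and not a measured binding site.

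The measurement is a log2 intensity, 1 value per gene and array, as deposited. A level is such a value, and a difference is the E4bp4-LKO level minus the WT level. Levels of different genes come from different probes and are not set against each other. Background was drawn at the median level of all genes (4.20 on the log2 scale), and 36 of the 37 measured members lay above it. Sec61b, at 3.59 on the WT and 3.61 on the E4bp4-LKO array, was the member below it. Nfil3 itself was 5.94 on the WT and 4.47 on the E4bp4-LKO array, a difference of -1.47 (2.77-fold lower), in the direction of the label. Hepatocyte markers were present on both arrays, all 10 of 10 above background, with mean levels of 10.9 (WT) and 11.0 (E4bp4-LKO). On the E4bp4-LKO array 7 of them were higher and 3 lower, with a median difference of 0.11. Cps1 (0.30) and Asgr2 (0.17) were farthest from 0. In bulk liver RNA, fewer cells of a type and less RNA per cell cannot be told apart.

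The ER folding genes stood at nearly the same level on the 2 arrays. The median difference of the 36 members was -0.046, beside -0.023 over all 11090 genes above background. The difference was below 0 for 21 of the 36 and above 0 for 15. None was 1.5-fold higher or 1.5-fold lower, where 1.51% and 2.06% of all genes above background were. At 1.2-fold, none was higher and 2 were lower, Ero1l and Eif2ak3, where 10.6% of all genes were higher and 12.7% lower. The difference was under 0.1 for 21 members (58.3%) and for 37.6% of all genes. Its median size without regard to sign was 0.090 in the members and 0.14 in all genes. Among the genes above the 75th percentile of levels, which hold 32 members, these sizes were 0.089 and 0.12. The SD between members was 0.13. As a measure of probe disagreement, the 555 genes above background with 2 probe sets had an SD of 0.22 between the differences of their probe sets, which is larger than the difference of 34 of the 36 members.

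**Figure D1:**
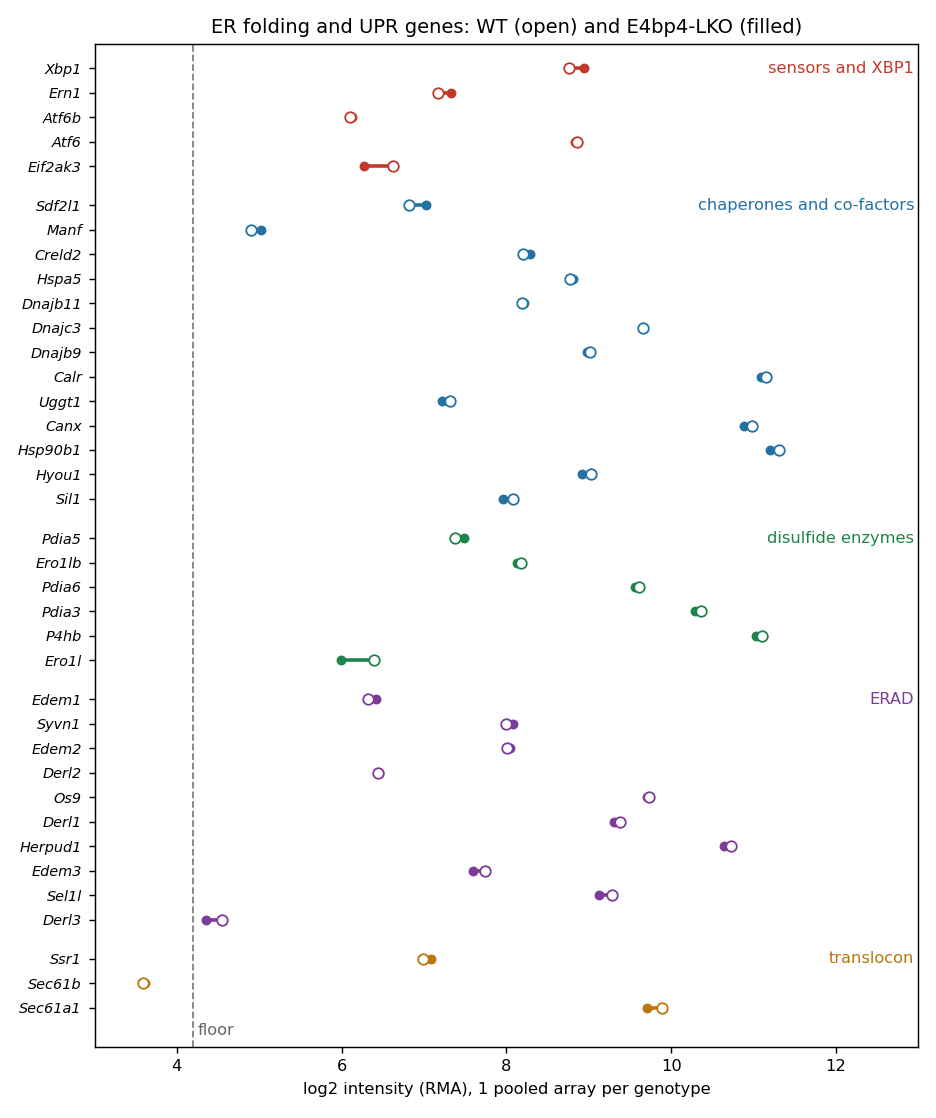
Level of each of the 37 measured members on the WT array (open circle) and on the E4bp4-LKO array (filled circle), in log2 intensity on the x axis, ordered by difference within each role; the dashed line is the background level of 4.20. The pairs of circles nearly coincide for most genes, and the longest connecting bars are those of Ero1l and Eif2ak3.

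The sensors differed among themselves. Eif2ak3, which encodes PERK, was 6.63 on the WT and 6.27 on the E4bp4-LKO array, a difference of -0.35 (1.28-fold lower). Ern1, which encodes IRE1α, was 7.17 and 7.32, a difference of 0.15. Xbp1, the transcript that IRE1 splices, was 8.76 and 8.95, a difference of 0.19 (1.14-fold higher). Ern1 and Xbp1 thus stood slightly higher and Eif2ak3 lower on the E4bp4-LKO array. Each rests on 1 probe set, and the differences of Ern1 and Xbp1 are smaller than the probe set SD of 0.22. Atf6 was 8.86 and 8.83, and its homologue Atf6b 6.10 and 6.13, differences of -0.022 and 0.029. The median over the 5 genes was 0.029, and the SD between them, 0.21, was the largest of the roles.

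Targets of the individual branches lay close to 0. Of the ATF6 targets Hspa5, Hsp90b1, Hyou1, Calr, Pdia4 and Herpud1, 5 were measured, with a median difference of -0.089. The XBP1 targets Dnajb9, Dnajb11, Dnajc3, Edem1 and Pdia6 had a median of 0.0037, with differences from -0.054 to 0.11. No measured target of either branch was past 1.2-fold, where 10.6% of all genes above background were higher and 12.7% lower. At those shares, lists as short as these would hold few such genes in any case. Transcripts downstream of PERK, translated or induced through ATF4, were described by 8 genes, with a median of 0.033 and none past 1.2-fold. Ppp1r15a, the phosphatase subunit that reverses eIF2α phosphorylation, was farthest from 0 among these (0.18), followed by Atf4 itself (0.14) and the glutathione-degrading Chac1 (-0.14).

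The chaperones had a median difference of -0.038 over 13 genes, 7 of them below 0 and 6 above. Hspa5, the BiP chaperone and the usual readout of ER stress, was 8.77 on the WT and 8.81 on the E4bp4-LKO array, a difference of 0.042 (1.03-fold). Hsp90b1 (GRP94), the ER form of HSP90, was 11.31 and 11.20, a difference of -0.11. Hyou1, a large HSP70 relative that exchanges the nucleotide of BiP, also differed by -0.11. Sil1, the other exchange factor of BiP, differed by -0.12, the lowest of the chaperones.

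The lectin cycle holds glycoproteins until they are folded. Calr (calreticulin) was 11.15 and 11.09, Canx (calnexin) 10.98 and 10.88, and Uggt1, which marks unfolded glycoproteins for another round, 7.31 and 7.21. Their differences were -0.062, -0.100 and -0.095. Each is smaller than the probe set SD of 0.22, and 54.5% of all genes above background had a difference below 0.

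J proteins bring substrates to BiP, and the 3 in the list lay close to 0. Dnajb9 (ERdj4) differed by -0.038, Dnajb11 (ERdj3) by 0.017 and Dnajc3 (p58IPK) by 0.0037. Outside the list, the ER J proteins Dnajc10, Dnajc1 and Dnajc25 differed by -0.31, 0.23 and -0.13. Sec63, a J protein of the translocation machinery, differed by 0.0034. Sdf2l1, which binds ERdj3, was 6.81 on the WT and 7.03 on the E4bp4-LKO array, a difference of 0.21 (1.16-fold), the highest of all members. The small stress-induced secretory proteins Manf (4.90 and 5.02) and Creld2 (8.20 and 8.29) were also higher, by 0.12 and 0.091. Alg12, the mannosyltransferase gene that shares the ERSE of Creld2, was no member and was looked up for that reason after the values were seen; it was 8.08 and 8.18, a difference of 0.099.

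Disulfide enzymes introduce and reshuffle the bonds between cysteines. Of 6 measured genes, 5 had a negative difference, and the median was -0.063. The isomerases P4hb (PDI), Pdia3 (ERp57, the partner of calreticulin and calnexin) and Pdia6 differed by -0.074, -0.071 and -0.054, and Pdia5 by 0.11. Pdia4 was covered only by a probe set shared with the microRNA gene Mir704, which was 8.05 on the WT and 7.94 on the E4bp4-LKO array.

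Ero1l, the oxidase that recharges PDI, had the largest difference of all members. It was 6.40 on the WT and 5.99 on the E4bp4-LKO array, a difference of -0.40 (1.32-fold lower). It rests on 2 probe sets that were both lower but by unequal amounts. The probe set with the higher level was 7.85 and 7.64 (-0.21), and the other 4.94 and 4.34 (-0.60). With the first alone, Ero1l lay within 1.2-fold. Its homologue Ero1lb, which carries the ERSE printed above, was 8.18 and 8.12, a difference of -0.054.

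ERAD genes had a median of -0.049 over 10 members, 6 below 0. The retrotranslocation complex, in which Sel1l stabilises the ubiquitin ligase Syvn1 (HRD1), gave opposite signs. Sel1l was 9.28 on the WT and 9.13 on the E4bp4-LKO array (-0.16), and Syvn1 was 7.997 and 8.083 (0.086). Each rests on 1 probe set, and both differences are smaller than the probe set SD of 0.22. Herpud1, a short-lived organiser of that complex, was 10.72 and 10.63 (-0.089), and the lectin Os9, whose window holds the E4BP4 element, was 9.73 and 9.70 (-0.030). The mannosidase-like proteins that trim doomed glycoproteins differed by 0.11 (Edem1), 0.048 (Edem2) and -0.15 (Edem3). The derlins, membrane proteins of the exit route, differed by -0.069 (Derl1), 0.013 (Derl2) and -0.20 (Derl3), the last near background at 4.55 and 4.35.

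The translocon admits nascent chains into the ER. Sec61a1, its channel, was 9.88 on the WT and 9.71 on the E4bp4-LKO array, a difference of -0.18 (1.13-fold lower). Ssr1, a subunit of the TRAP complex beside the channel, was 6.99 and 7.08, a difference of 0.089. Its 2 probe sets gave -0.0081 and 0.19. Of the other members with 2 probe sets, those of Derl2 (0.087 and -0.061) and of Sec61b (0.22 and -0.18) had opposite signs, and those of Edem1 (0.038 and 0.17) the same sign.

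Members with the ERSE pointed both ways. The 10 members with the element, all above background, had a median difference of -0.054 and ranged from -0.20 (Derl3) to 0.091 (Creld2), with 6 below 0. The 20 members above background with a window but without an exact match had a median of -0.0084 and ranged from -0.40 to 0.21. They include Herpud1 and Dnajb11, which carry ERSE-II, and may include genes with variants of the element, which were not searched. Outside the list, 7 genes above background carried the element, with differences from -0.58 to 0.65 and a median of 0.086.

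**Figure D2:**
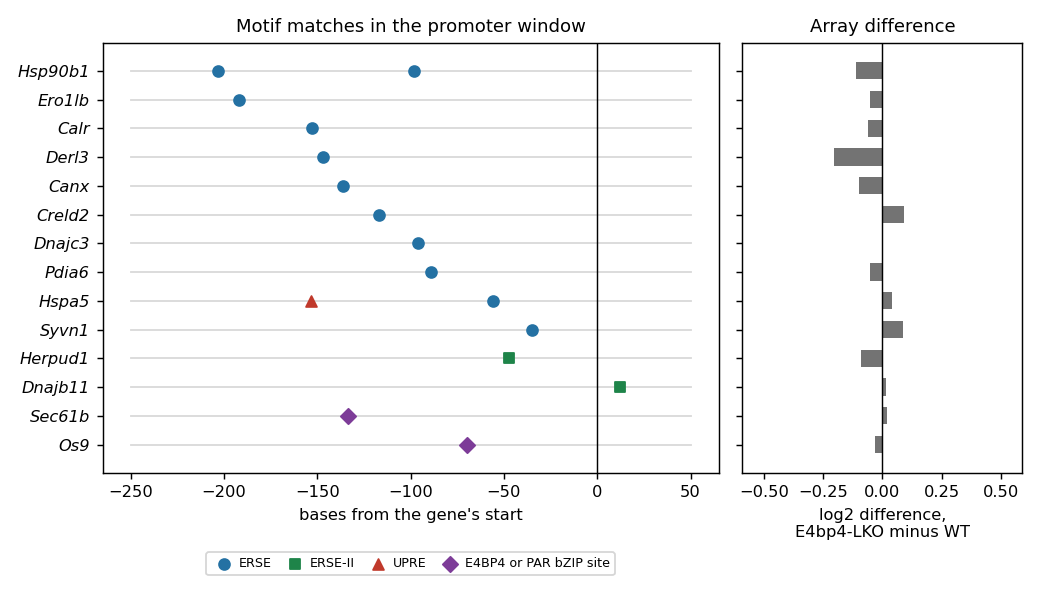
Left, the centre of each motif match in the promoter windows of 14 members, in bases from the gene's start (0); right, the log2 difference of the same gene, E4bp4-LKO minus WT, as bars from 0. The ERSE matches lie upstream of the start in all 10 genes that have one, and the bars point both ways.

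**Figure D3:**
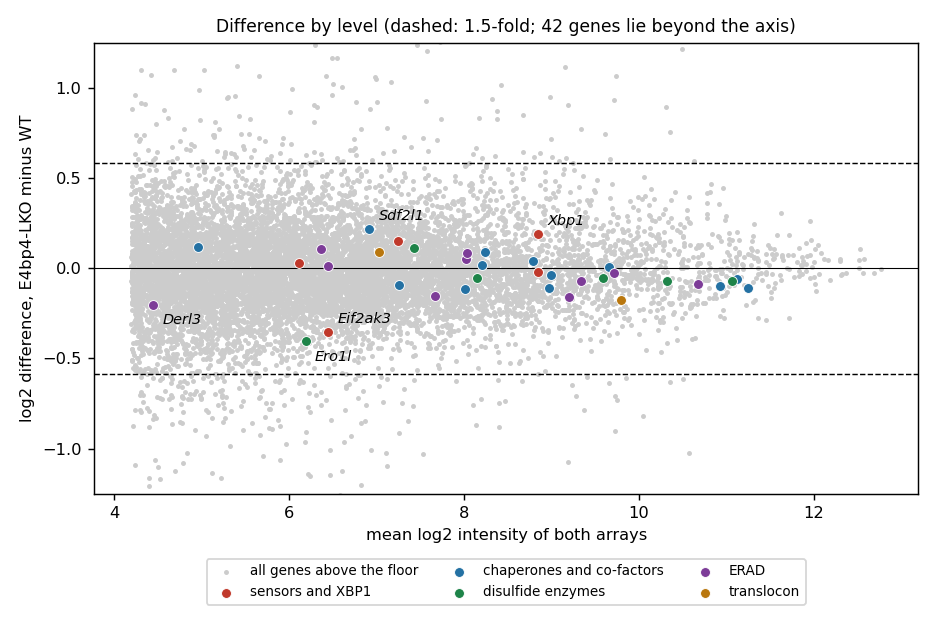
Log2 difference (y axis, E4bp4-LKO minus WT) by the mean log2 intensity of both arrays (x axis), for all 11090 genes above background (grey) and the 36 members above it (coloured by role); dashed lines mark 1.5-fold. All members lie between -0.40 and 0.21, inside the dashed lines.

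A wider list of 111 other ER and UPR genes set the members in context. Of these 103 were measured and 98 lay above background, with a median difference of -0.027. None was 1.5-fold higher and 1 was 1.5-fold lower, Creb3l1, where 1.51% and 2.06% of all genes above background were. At 1.2-fold, 5 were higher and 10 lower, where 10.6% of all genes were higher and 12.7% lower. Creb3l1 encodes OASIS, a membrane-bound factor cleaved like ATF6 that serves collagen secretion. It was 5.80 on the WT and 4.64 on the E4bp4-LKO array, a difference of -1.16 (2.24-fold lower). Its relatives Creb3l2 and Creb3l3 differed by -0.20 and -0.17.

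Collagen folding genes had the lowest median of the wider lists, -0.33 over the 5 of 9 above background, 4 of them below 0. Crtap, a subunit of the prolyl 3-hydroxylation complex, was 6.99 and 6.53 (-0.46), the collagen chaperone Serpinh1 (HSP47) 6.13 and 5.71 (-0.41), and the prolyl 4-hydroxylase subunit P4ha2 4.92 and 4.59 (-0.33). P4hb, which is both PDI and the partner subunit of that hydroxylase, differed by only -0.074. Stellate cell markers, the collagens among them, were lower beside these genes, 8 of 8, with mean levels of 6.93 (WT) and 6.27 (E4bp4-LKO). All 8 lay above background by their mean over both arrays, though Col1a2, at 4.72 (WT) and 4.14 (E4bp4-LKO), was below it on the latter. Col3a1 and Col1a1 differed by -1.15 and -1.01. The part of stellate cell content in the values of Creb3l1 and the collagen folding genes was not tested.

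Translocation and signal peptidase genes had the highest median, 0.093 over 14 genes, 9 of them above 0. Sec61g, the small tail-anchored subunit of the channel, was 6.86 on the WT and 7.43 on the E4bp4-LKO array, a difference of 0.57 (1.48-fold higher). Spcs2, a subunit of signal peptidase, differed by 0.38 and Ssr4, a TRAP subunit, by 0.31. The channel itself, Sec61a1, was on the other side of 0 (-0.18). Genes of N-glycosylation and glucose trimming had a median of -0.10 over 12 genes, with Prkcsh (-0.25) and Ganab (-0.21), the subunits of glucosidase II, and the oligosaccharyltransferase subunit Rpn2 (-0.21) farthest from 0. Glucosidase II acts just before calnexin and calreticulin, which were lower by less.

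Other lists lay between these. In other ERAD genes (median -0.053, 16 above background) the partners Erlin1 and Erlin2, which form 1 complex that degrades activated IP3 receptors, differed by -0.33 and -0.31, and the ubiquitin-conjugating enzyme Ube2j2 by 0.32. Among other chaperones and prolyl isomerases (median -0.024, 15 above background), the glucose-binding lectin Mlec differed by -0.36, Cnpy2 by 0.35 and the disulfide reductase Dnajc10 by -0.31. In the thioredoxin family (median 0.013, 12 above background) Tmx4 differed by -0.36, Gpx8 by 0.24 and Txndc5 by -0.23. Transcripts that IRE1 is reported to cleave (Hgsnat, Scara3 and Bloc1s1) differed by -0.10, -0.096 and -0.087.

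**Figure D4:**
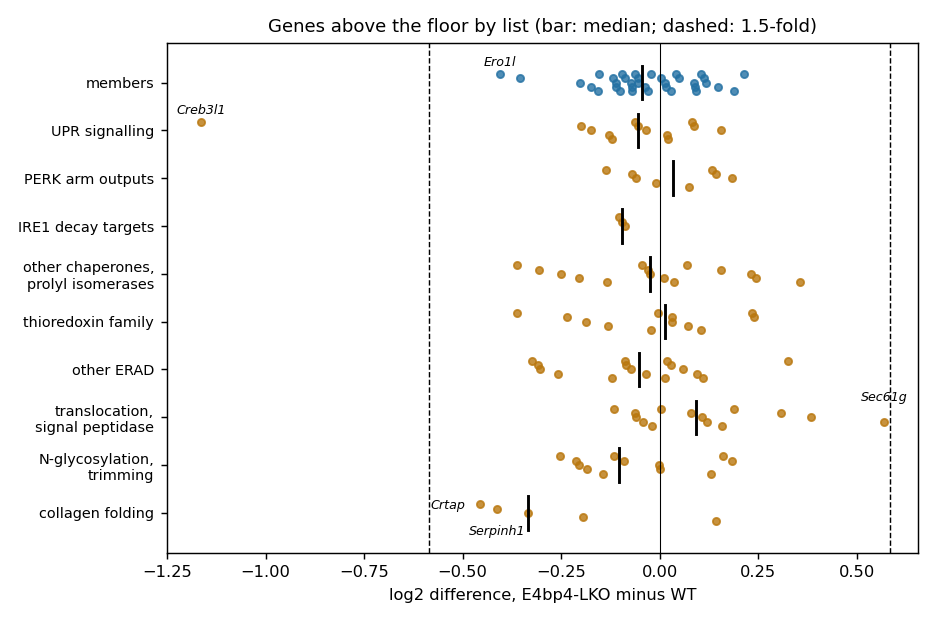
Log2 difference, E4bp4-LKO minus WT (x axis), of each gene above background, for the members (blue) and for 9 other lists of ER and UPR genes (orange); black bars are medians and dashed lines mark 1.5-fold. Creb3l1 alone lies outside the dashed lines, the collagen folding genes sit lowest as a list, and genes beyond 0.4 either way are named.

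**Figure D5:**
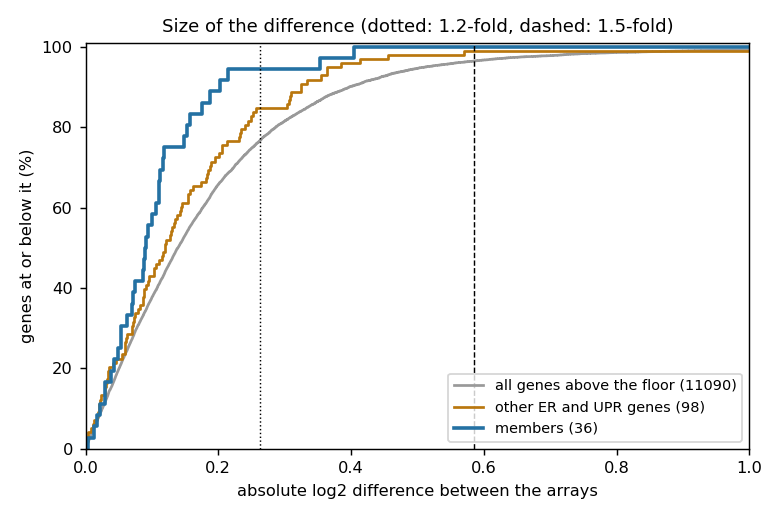
Share of genes (y axis, percent) whose log2 difference is no larger than the value on the x axis, without regard to sign, for the 36 members (blue), the 98 other ER and UPR genes (orange) and all 11090 genes above background (grey). The blue curve lies above the grey one over most of the range, and 2 members lie beyond the dotted line of 1.2-fold.

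Plasma cells and pancreatic acinar cells are rich in the same ER proteins, so their markers were read beside the members. Of 8 plasma cell markers 6 were measured and 3 lay above background, with mean levels over the 6 of 4.62 (WT) and 4.86 (E4bp4-LKO). Of these 3, Jchain was 5.06 and 5.69 (0.63), and Sdc1, which hepatocytes also express, 6.38 and 6.71 (0.33), and Ighm, an immunoglobulin heavy chain gene of B cells, 5.83 and 5.66 (-0.17). Of 8 acinar markers 5 were measured, with mean levels of 3.35 and 3.36; only Cela1 lay above background. Macrophage markers were lower in 6 of 8 (mean levels 6.94 and 6.51), with Gpnmb (-1.98, below background on the E4bp4-LKO array at 4.06) and Trem2 (-0.67) farthest from 0. The 2 that were higher were Timd4 (0.35) and Clec4f (0.17), markers of resident Kupffer cells. Among the 6 lower were the macrophage markers Adgre1 (-0.27) and Csf1r (-0.052). The differences of Clec4f and Csf1r are smaller than the probe set SD of 0.22. Skeletal muscle markers were lower in 10 of 10, of which 8 lay above background (mean levels of the 10, 5.70 and 4.79), led by Myh2 (-1.83) and Atp2a1 (-1.47). Their part in the members' values was not tested.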

How the data were processed

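The values are log2 intensities of 41345 probe sets on 2 arrays, deposited by the authors. The tools listed, per the submitters' processing notes, are RMA (background correction, quantile normalisation, probe summary) and R 3.4.0. RMA compresses differences of dim genes. Per the series description, the RNA samples were pools; 400 ng entered the labelling, per the labels' protocols. Detection calls were not used here, and the number of arrays limits the precision.

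Probe sets with exactly 1 symbol in the platform annotation (23521; 1814 had several and 16010 none) were averaged per gene, giving 22180 genes. The floor, called background in the text, was the median gene level. Past 1.5-fold or 1.2-fold counted as a call. Named were all members, the up to 3 genes of each other list and up to 2 of each marker list with the largest difference above the floor, and Nfil3. Alg12, Dnajc1, Dnajc25, Sec63, Ighm, Col1a2, Timd4, Clec4f, Adgre1 and Csf1r were named after their values were seen. The members and lists were chosen with earlier results of these data known. Proteins were not analysed here. Python 3.11.15, pandas 2.3.3, numpy 2.4.6 and matplotlib 3.10.9 were used. The procedure was tested on simulated data with planted differences and motifs. The simulated arrays had no noise between them, so only the calculation and the motif search were checked. The alternatives were other floors, probe set rules, trend removal and centring.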

Additional observations from a re-analysis of the deposited data

How the results depend on the processing

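Over 8 alternatives (the probe set with the highest level, a floor at the 75th percentile, no floor, a floor on both arrays, the level trend removed, centring on all genes, shared probe sets added, and, chosen after seeing the data, matching by listed symbols only), no member was past 1.5-fold. The number past 1.2-fold, 2 as reported, was 1 with the highest probe set, with the 75th percentile floor and with listed symbols only, each of which alters or leaves out Ero1l. In the other 77 of 80 medians and counts, the counts were unchanged and no median moved by more than its spread. Spread here is the SD between the genes of a list divided by the square root of their number. Even so, the translocon median turned from -0.043 to 0.020 without a floor, which adds Sec61b. Of 282 single-gene values none moved by more than the probe set SD, and 2 changed sign, Ssr1 (-0.0081, highest probe set) and Derl2 (-0.0051, shared probe sets). Most of these values could not move. Floors and symbol matching leave a gene's difference unchanged, and only 5 members have several probe sets. No paired analysis was possible because each genotype has 1 array. Without replicates or scanner files, neither variation between mice nor signal over background could be measured.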
